A study of Homo sapiens with 24 samples.

Results

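The D and E cyclins, the kinases of cyclin D and the Cip/Kip inhibitors were followed in Panc-1, a human pancreatic ductal adenocarcinoma (PDAC) cell line, with and without an induced acinar transcription factor. The 10 genes were taken by name from the deposited tables, out of 14409 genes listed in any table and 13519 listed in all 3, and every one of the 10 was listed in all 3 tables. They are the D cyclins CCND1, CCND2 and CCND3, the kinases CDK4 and CDK6, the E cyclins CCNE1 and CCNE2, and the inhibitors CDKN1A (p21), CDKN1B (p27) and CDKN1C (p57). They were taken by their place in the cell cycle, with no threshold on any value. Tet-One cells carried the empty doxycycline-inducible plasmid, Tet-MIST1 cells the same plasmid with the rat MIST1 open reading frame and Tet-PTF1a cells the plasmid with the mouse PTF1a open reading frame, both with a myc tag. Each line had 4 libraries without doxycycline (Control) and 4 libraries after 1 µg/ml doxycycline for 72 h (Dox), 24 libraries of polyadenylated RNA in 6 groups. All were grown in medium with tetracycline-depleted serum, at passage 32 for Tet-One, 33 for Tet-MIST1 and 32 for Tet-PTF1a. The study's methods describe a screen of individual clones of all 3 lines, for induction of PTF1a and MIST1. A line, its clone and its table therefore cannot be told apart. The study's methods call the 4 libraries of a group biological replicates, all of them from the same line.

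Cyclins are the regulatory subunits of cyclin-dependent kinases. Mitogens raise the D cyclins, which activate CDK4 and CDK6 in early G1, and these kinases begin to phosphorylate the retinoblastoma protein. The E cyclins then activate CDK2 and E2F factors are released, so that the cell enters S phase. The Cip/Kip proteins inhibit the E cyclin kinases and also help D cyclins and their kinases to assemble. CCND1 is commonly abundant in pancreatic cancer cells, in which the INK4 inhibitor CDKN2A is often lost. MIST1 (gene BHLHA15) and PTF1a (gene PTF1A) are basic helix-loop-helix (bHLH) factors of the acinar cell that bind E boxes, short sites of the form CANNTG.

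The libraries held 17210609 to 43017608 counts each, with the shallowest among those of Tet-PTF1a. In the Tet-PTF1a table PTF1A had 0 to 2 counts in the Control libraries and 95, 148, 53 and 168 counts in Dox replicates 1 to 4. It was not listed in the other 2 tables, and BHLHA15 was not listed in the Tet-MIST1 table, so the induction of MIST1 was not checked here. Tet-One Dox replicate 1 stood apart from the other 3 Dox libraries of its group. Its log2 ratio to them had a Spearman correlation of -0.721 with exon length across 12726 genes, and 9 of the 10 cell cycle genes lay farthest from their group's median in that library. Tet-MIST1 Dox replicate 1 had a correlation of -0.642 with exon length. In the Control libraries of all 3 lines the epithelial keratin KRT8 (means of 912 to 2930 CPM) and the mesenchymal filament VIM (4780 to 6230 CPM) were abundant. The epithelial markers KRT7 (means of 1.44 to 4.65 CPM) and CDH1 were far lower than KRT8 in these libraries. The fibroblast marker COL1A1 had means of 123 CPM in Tet-One Control, 65.0 in Tet-MIST1 Control and 153 in Tet-PTF1a Control. Of the 14 markers looked for, PTPRC of blood cells, PECAM1 of endothelium, and the fibroblast markers DCN and LUM were not listed.

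The promoters of 3 of the genes are shown because the induced factors are E box binders and because these genes represent the largest Tet-PTF1a response, the kinase response and the best known Cip/Kip inhibitor. Each sequence runs from 250 bases before a gene start to 30 bases after it, on the strand of the gene, with E boxes in capitals. The first 2 start from the hg19 gene start of the deposited tables (GRCh37, chr11:69455623-69455902 on the plus strand for CCND1 and chr7:92465912-92466191 on the minus strand for CDK6), and the CDKN1A sequence is the RefSeq promoter (GRCh38.p14, chr6:36678464-36678743, plus strand).

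CCND1: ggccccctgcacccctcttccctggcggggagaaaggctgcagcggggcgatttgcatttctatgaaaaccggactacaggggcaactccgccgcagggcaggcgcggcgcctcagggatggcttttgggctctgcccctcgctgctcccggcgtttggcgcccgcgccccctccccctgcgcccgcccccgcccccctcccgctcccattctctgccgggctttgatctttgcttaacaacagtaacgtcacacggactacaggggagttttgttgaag

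CDK6: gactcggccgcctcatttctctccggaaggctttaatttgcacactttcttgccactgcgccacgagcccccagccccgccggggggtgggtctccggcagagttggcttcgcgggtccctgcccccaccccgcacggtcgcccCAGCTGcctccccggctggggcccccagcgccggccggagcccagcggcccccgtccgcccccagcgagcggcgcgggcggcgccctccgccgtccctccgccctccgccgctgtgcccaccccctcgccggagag

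CDKN1A: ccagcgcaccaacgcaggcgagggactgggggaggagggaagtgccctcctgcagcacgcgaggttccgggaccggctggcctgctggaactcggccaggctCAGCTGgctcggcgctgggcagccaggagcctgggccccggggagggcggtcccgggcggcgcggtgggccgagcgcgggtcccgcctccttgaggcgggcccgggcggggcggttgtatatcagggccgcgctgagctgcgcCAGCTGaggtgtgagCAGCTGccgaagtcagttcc

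The CCND1 window held no E box, the CDK6 window held 1 and the CDKN1A window held 3. All 4 of these E boxes read CAGCTG, at position -106 in CDK6 and at -148, -5 and 11 in CDKN1A, counted from the gene start. Over windows of 250 bases before and 50 after a start, 61.3% of the 14254 gene starts of the tables and 68.9% of the 27305 RefSeq promoters held an E box on either strand, and CAGCTG was in 15.6% and 17.7% of them. The CDKN1A row of the tables began at an earlier start (hg19 chr6:36644237), and the window there held no E box. At the tables' starts, E boxes were also found for CCND2 (1, CAGCTG), CCND3 (2), CDK4 (4, all CACGTG), CCNE1 (1) and CDKN1C (1), and none for CCNE2 or CDKN1B. The RefSeq promoter of CDK4 held 6 E boxes, 2 of them CAGCTG, and that of CDK6 held 2, of which 1 was CAGCTG. Those of CCND3 and CCNE1 held 1 each, neither of them CAGCTG, and that of CDKN1B held none. No RefSeq promoter was used for CCND1, CCND2, CCNE2 or CDKN1C. None of the 10 windows at the tables' starts held CATCTG or the TC box TGGGAAA, which were in 9.93% and 7.45% of all such windows. A match of letters is a description of the window and not a measurement of binding.

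Dox in Tet-PTF1a cells was followed by more CCND1, CDK6, CDKN1C and CDKN1A mRNA and slightly less CDK4 mRNA. In Tet-MIST1 cells 2 of the genes rose, CCNE2 and CDK4, and in Tet-One cells none passed the test. When the responses of Tet-PTF1a and Tet-One were compared directly (below), only those of CCND1 and CDK6 differed. In the same comparison of Tet-MIST1 with Tet-One, over all 16 libraries, edgeR called no difference. The log2 difference was 0.21 for CCNE2 (edgeR adjusted p = 0.459) and 0.06 for CDK4 (edgeR adjusted p = 0.972). CDKN1C had a log2 fold change of 0.66 in Tet-PTF1a and 0.64, not called, in Tet-One. Dox and Control libraries of a line were set against each other with edgeR (quasi-likelihood test), and a gene was called at a Benjamini-Hochberg adjusted p below 0.05 over all genes tested. In Tet-PTF1a 5 of 10 were called, 4 up and 1 down, where 48.2% of all 14051 genes tested were called. In Tet-MIST1 2 of the 9 tested were called, both up, where 20.6% of 13621 genes were called, and CCND2 was left untested by the filter on low counts. In Tet-One 0 of 10 were called by edgeR and 0 by DESeq2, where 0% of 13426 genes were called by edgeR, and CCNE1 and CDKN1C had an unadjusted p below 0.05. The shares called in Tet-PTF1a and Tet-MIST1 were near those of all genes, and the description therefore rests on single genes. The spread between replicates, as edgeR's biological coefficient of variation, was 2.80% in Tet-PTF1a, 6.58% in Tet-MIST1 and 14.4% in Tet-One. The median absolute log2 fold change of all genes was 0.12, 0.12 and 0.09. A change of a given size was thus called more readily in Tet-PTF1a, and called counts do not compare the size of responses between lines. The median log2 fold change of the genes was 0.12 in Tet-PTF1a, 0.03 in Tet-MIST1 and 0.08 in Tet-One, beside medians of all genes of 0.00, -0.00 and 0.00. In these bulk samples fewer cells that express a gene and less RNA per cell cannot be told apart.

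**Figure D1:**
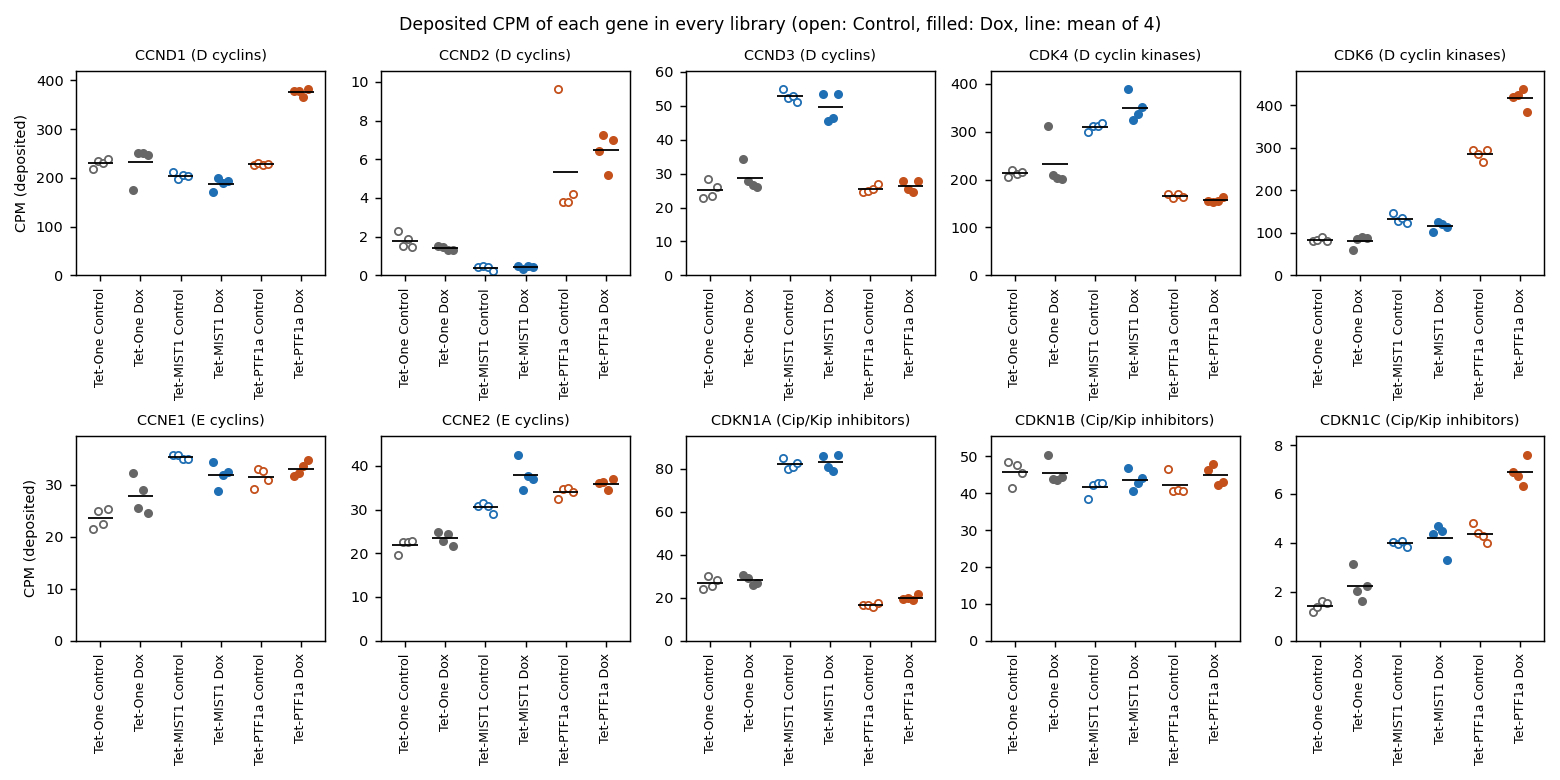
Deposited CPM (y axis, from 0) of the 10 genes in each of the 24 libraries, grouped by line and condition on the x axis, with open points for Control, filled points for Dox and a line at the mean of 4 libraries. The 4 Tet-PTF1a Dox libraries lie at 366 to 382 CPM for CCND1, above every other library, and 1 Tet-PTF1a Control library lies at 9.62 CPM for CCND2.

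CCND1 (hg19 chr11:69455873-69469242, plus strand, 5 exons listed) encodes cyclin D1, the main D cyclin of these cells. In Tet-PTF1a its CPM was 226, 231, 227 and 228 in the Control libraries and 378, 378, 366 and 382 in the Dox libraries. The groups did not overlap and the libraries of each group lay close together. The log2 fold change was 0.72 (SE 0.0219, edgeR adjusted p = 5.29e-32), a 1.65-fold rise. In Tet-MIST1 it was 212, 197, 205 and 204 CPM in Control and 171, 199, 189 and 194 in Dox, with a log2 fold change of -0.11 (edgeR adjusted p = 0.149). The lowest of these was Dox replicate 1. In Tet-One it was 219, 235, 230 and 239 CPM in Control and 176, 251, 252 and 248 in Dox, with a log2 fold change of 0.01 (edgeR adjusted p = 0.980). Dox replicate 1 was below and the other 3 Dox libraries above all the Control libraries. Without that library the value was 0.12 (edgeR adjusted p = 0.278).

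CCND2 (hg19 chr12:4382902-4414522, plus strand, 5 exons) encodes cyclin D2 and was the lowest of the 3 D cyclins in every group. In Tet-PTF1a it was at 9.62, 3.81, 3.77 and 4.20 CPM in Control and 6.43, 7.26, 5.20 and 6.97 in Dox. Control replicate 1 was above all the Dox libraries and the other 3 Control libraries were below them. Its log2 fold change was 0.16 (95% interval -0.76 to 1.08, edgeR adjusted p = 0.771). Without Control replicate 1 it was 0.70 (edgeR adjusted p = 1.38e-07), and without any other single library it lay between -0.01 and 0.24 and was not called. In Tet-MIST1 the gene had 9 to 20 counts per library, or 0.247 to 0.497 CPM, and was not tested. In Tet-One it had 1.47 to 2.27 CPM in Control and 1.29 to 1.50 in Dox (log2 fold change -0.34, edgeR adjusted p = 0.897).

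CCND3 (hg19 chr6:41902671-42016632, minus strand, 7 exons) encodes cyclin D3. It was not called after Dox in any line. Its mean was 25.4 ± 1.10 CPM in Tet-PTF1a Control and 26.5 ± 1.55 in Dox (SD, n = 4), 52.8 ± 1.52 and 49.6 ± 4.39 in Tet-MIST1, and 25.2 ± 2.64 and 28.7 ± 3.86 in Tet-One. The log2 fold changes were 0.06, -0.08 and 0.19, with 95% intervals of -0.04 to 0.16, -0.22 to 0.06 and -0.07 to 0.45.

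CDK6 (hg19 chr7:92234235-92465941, minus strand, 9 exons) encodes a catalytic partner of the D cyclins. Its CPM in Tet-PTF1a was 294, 286, 267 and 295 in Control and 420, 425, 438 and 385 in Dox. Every Dox library was above every Control library. The log2 fold change was 0.54 (SE 0.0485, edgeR adjusted p = 3.39e-05), a 1.46-fold rise, and it was called without each of the 8 libraries in turn. In Tet-MIST1 it was at 146, 129, 135 and 124 CPM in Control and 102, 126, 120 and 114 in Dox, which overlapped, and the log2 fold change of -0.20 was not called (edgeR adjusted p = 0.0571). It was called without Dox replicate 1 (-0.14, edgeR adjusted p = 0.0363), without Dox replicate 2 (-0.24, edgeR adjusted p = 0.0251) and by DESeq2 (adjusted p = 0.0365). In Tet-One it was at 80.8 to 89.9 CPM in Control and at 59.7, 86.2, 90.3 and 88.6 in Dox, with replicate 1 again apart. Its log2 fold change of -0.04 turned to 0.08 without it, and neither was called.

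CDK4 (hg19 chr12:58141510-58146230, minus strand, 8 exons) encodes the other D cyclin kinase. Its CPM in Tet-MIST1 was 300, 312, 312 and 318 in Control and 389, 325, 337 and 352 in Dox. All Dox libraries were above the Control libraries, with replicate 1 the highest. The log2 fold change was 0.19 (SE 0.0568, edgeR adjusted p = 0.0386), a 1.14-fold difference. With single libraries left out the log2 fold change was 0.14 to 0.23, and it was called without Dox replicate 1 (edgeR adjusted p = 0.0167) or 2 (0.0123) and not called without any of the other 6 (0.17 to 0.21, edgeR adjusted p up to 0.115). Tet-PTF1a libraries held 169, 162, 169 and 164 CPM in Control and 156, 153, 155 and 163 in Dox. Its log2 fold change was -0.08 (SE 0.0256, edgeR adjusted p = 0.00600), and it was not called with library-size scaling (-0.05, edgeR adjusted p = 0.132) or with all 24 libraries in a single fit (-0.09, edgeR adjusted p = 0.616). Its CPM in Tet-One was 206 to 220 in Control and 312, 210, 204 and 201 in Dox, where the log2 fold change of 0.12 turned to -0.05 without Dox replicate 1 and neither was called. The exons of CDK4 shared 517 of 2002 bases with TSPAN31 on the opposite strand, and the use of strand in counting was not given in the sources used here. TSPAN31 had a mean of 8.60 CPM in Tet-MIST1 Control and 7.64 in Dox, and its log2 fold change was -0.16 in Tet-MIST1 (not called) and 0.24 in Tet-PTF1a (edgeR adjusted p = 7.79e-04), opposite in sign to CDK4 in both.

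CCNE2 (hg19 chr8:95892453-95907482, minus strand, 12 exons) encodes cyclin E2, an activator of CDK2. Tet-MIST1 libraries held 30.8, 31.5, 30.9 and 29.1 CPM in Control and 42.6, 34.5, 37.6 and 37.1 in Dox. The groups did not overlap. The log2 fold change was 0.32 (SE 0.0646, edgeR adjusted p = 0.00563), a 1.25-fold rise, and it was called without each of the 8 libraries in turn (0.26 to 0.37). The exons of CCNE2 shared 269 of 2726 bases with INTS8 on the opposite strand. INTS8, a subunit of the Integrator complex, had means of 88.4 CPM in Tet-MIST1 Control and 105 in Dox, with a log2 fold change of 0.26 (edgeR adjusted p = 0.00179), and how far the shared bases entered the CCNE2 value was not tested. In Tet-PTF1a CCNE2 was at 32.5 to 34.9 CPM in Control and 34.4 to 36.9 in Dox (log2 fold change 0.09, edgeR adjusted p = 0.0682), and it was called without Dox replicate 3 (0.11, edgeR adjusted p = 0.0366). Tet-One libraries held 19.5 to 22.7 CPM in Control and 21.6 to 24.9 in Dox (0.10, edgeR adjusted p = 0.897).

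CCNE1 (hg19 chr19:30302901-30315215, plus strand, 12 exons) encodes cyclin E1. In Tet-MIST1 it was at 35.8, 35.8, 35.0 and 35.0 CPM in Control and 34.3, 28.8, 31.8 and 32.4 in Dox. All Dox libraries were below the Control libraries, and the log2 fold change of -0.14 (SE 0.0564) was not called (edgeR adjusted p = 0.0866). It was called without Dox replicate 1 (-0.18, edgeR adjusted p = 0.0115) and with length and GC trends of the exons taken out (-0.19, edgeR adjusted p = 0.00695). In Tet-PTF1a it was at 29.1 to 33.1 CPM in Control and 31.6 to 34.7 in Dox (0.09, edgeR adjusted p = 0.0952). In Tet-One it was at 21.5, 24.9, 22.4 and 25.4 CPM in Control and 32.3, 25.6, 28.9 and 24.6 in Dox (0.24, unadjusted p = 0.0435, edgeR adjusted p = 0.897).

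CDKN1A (hg19 chr6:36644237-36655116, plus strand, 6 exons) encodes p21, an inhibitor of cyclin E and cyclin A kinases. Its CPM in Tet-PTF1a was 16.6, 16.5, 15.8 and 17.5 in Control and 19.5, 19.6, 19.0 and 21.6 in Dox. The groups did not overlap, and the log2 fold change was 0.26 (SE 0.0554, edgeR adjusted p = 9.12e-05), a 1.20-fold rise that was called without each of the 8 libraries in turn. Its CPM in Tet-MIST1 was 84.7, 80.0, 80.5 and 82.6 in Control and 85.6, 80.8, 79.0 and 86.5 in Dox. The groups overlapped, and the log2 fold change was 0.03 (95% interval -0.07 to 0.13, edgeR adjusted p = 0.688). Its CPM in Tet-One was 24.1 to 29.9 in Control and 25.8 to 30.6 in Dox (0.07, 95% interval -0.14 to 0.28, edgeR adjusted p = 0.897).

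CDKN1C (hg19 chr11:2904448-2906995, minus strand, 3 exons) encodes p57, the Cip/Kip inhibitor of an imprinted locus. Tet-PTF1a libraries held 4.81, 4.42, 4.27 and 3.99 CPM in Control and 6.89, 6.74, 6.33 and 7.61 in Dox. The groups did not overlap, and the log2 fold change was 0.66 (SE 0.0942, edgeR adjusted p = 4.73e-08), a 1.59-fold rise on 79 to 250 counts per library. Tet-One libraries held 1.17, 1.39, 1.63 and 1.54 CPM in Control and 3.13, 2.04, 1.61 and 2.22 in Dox. The log2 fold change there was 0.64 (SE 0.211, unadjusted p = 0.0131) and did not pass the adjusted test (edgeR adjusted p = 0.897). The highest was Dox replicate 1, without which it was 0.43. Tet-MIST1 libraries held 3.82 to 4.07 CPM in Control and 3.31 to 4.70 in Dox (0.10, edgeR adjusted p = 0.518).

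CDKN1B (hg19 chr12:12870204-12875316, plus strand, 3 exons) encodes p27, whose protein level is set largely by degradation through SKP2. It was not called after Dox in any line. Its log2 fold change was 0.08 in Tet-PTF1a (95% interval -0.02 to 0.17), 0.08 in Tet-MIST1 (-0.04 to 0.21) and -0.00 in Tet-One (-0.19 to 0.18). Over the 6 groups its mean lay between 41.6 and 45.8 CPM, and each group's range overlapped that of the next in order. In Tet-PTF1a it was called without Control replicate 1 (0.14, edgeR adjusted p = 0.00604), the library that held 46.5 CPM beside 40.5 to 40.9 in the other 3.

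**Figure D2:**
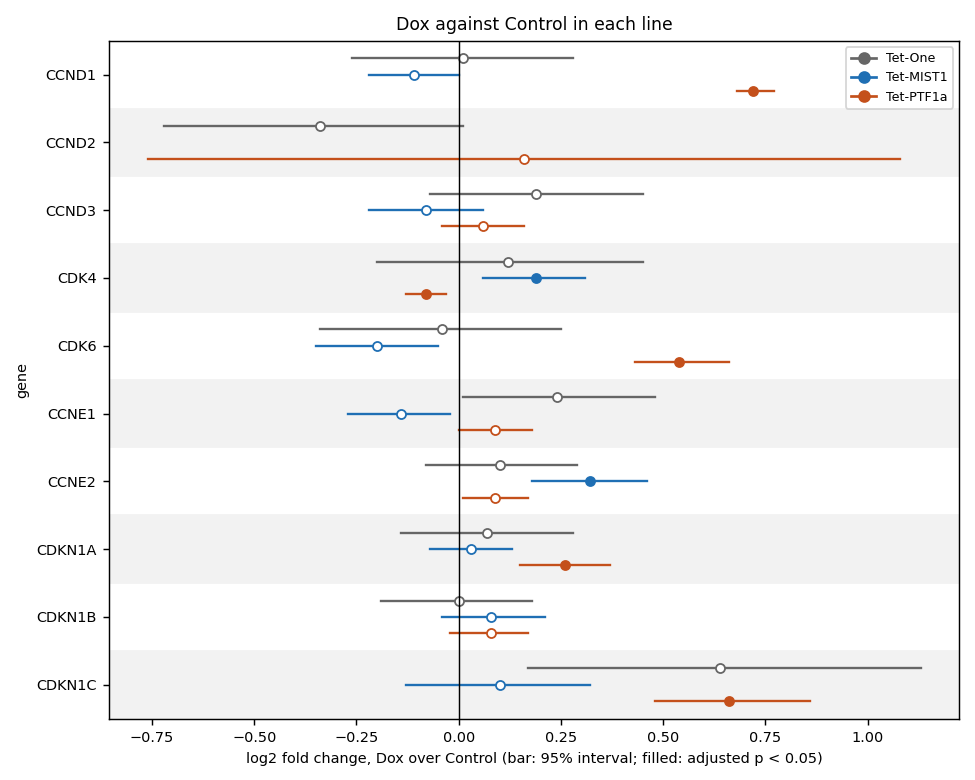
Log2 fold change of Dox over Control (x axis) for each gene (y axis) in the 3 lines, with 95% intervals from edgeR and filled points where the adjusted p is below 0.05. The Tet-PTF1a points of CCND1 (0.72), CDKN1C (0.66) and CDK6 (0.54) lie to the right of 0 with intervals clear of it, and the Tet-One CDKN1C point (0.64) is open. CCND2 has no Tet-MIST1 point because it was not tested there.

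The makeup of each role was compared per length, as RPKM computed from jointly scaled CPM and the listed exon length. The D cyclins were mostly CCND1, at 86.7% ± 0.821 of their summed RPKM in Tet-One Control (SD, n = 4), 85.7% ± 0.650 in Tet-PTF1a Control and 74.0% ± 0.483 in Tet-MIST1 Control. In Tet-PTF1a the summed D cyclin RPKM was 60.2 ± 0.525 in Control and 94.0 ± 2.06 in Dox, and the CCND1 share was 90.4% ± 0.399 in Dox. The 2 groups did not overlap in either measure. CDK4 held 77.4% ± 0.967 of the RPKM of the D cyclin kinases in Tet-PTF1a Control and 68.8% ± 1.73 in Dox, while their sum was 104 ± 1.93 and 110 ± 0.696. In Tet-MIST1 the CDK4 share was 93.2% ± 0.612 in Control and 94.7% ± 0.818 in Dox. CCNE1 held 61.9% ± 0.681 of the E cyclin RPKM in Tet-MIST1 Control and 54.0% ± 0.822 in Dox, without overlap, while the sum was 29.7 ± 0.551 and 30.9 ± 2.57. Among the inhibitors CDKN1A held 62.6% ± 1.57 in Tet-MIST1 Control, 35.0% ± 3.71 in Tet-One Control and 25.0% ± 1.52 in Tet-PTF1a Control. CDKN1B led in the latter 2 lines, with 62.4% and 66.1%. The sum of each role and the share of its first gene were tested between Control and Dox in each line by a two-sided exact permutation test over libraries, 24 tests in all. The smallest p that 4 against 4 libraries can give is 0.0286, which was reached where groups did not overlap. It became 0.0857 after adjustment over the 24, so none passed. With this floor a test could pass only if many of the 24 reached it, so the adjusted values cannot decide whether a sum or share changed.

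**Figure D3:**
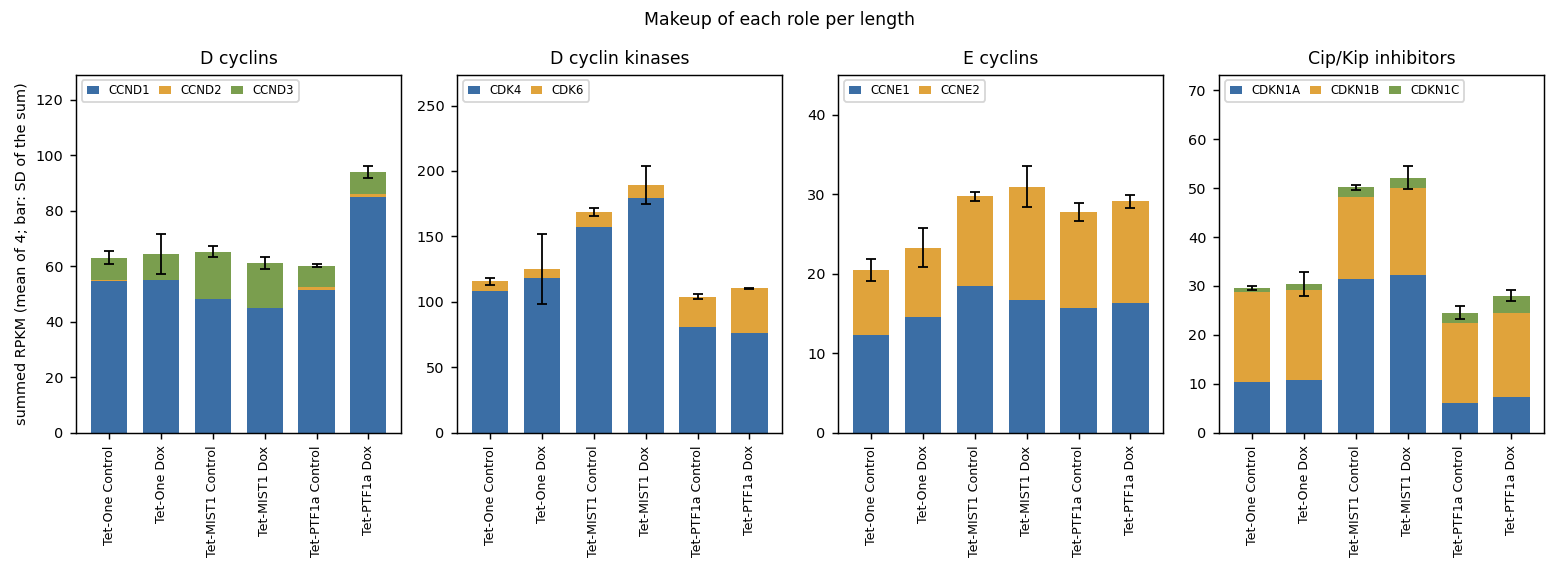
Summed RPKM of the genes of each role (y axis, from 0) in the 6 groups (x axis), stacked by the mean of each gene over 4 libraries, with the SD of the sum as the error bar. The D cyclin bar of Tet-PTF1a Dox reaches 94.0, beside 60.2 in its Control, and the inhibitor bars of Tet-MIST1 reach 50.2 and 52.1.

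The order of the 6 groups differed from gene to gene on the RPKM scale. CCND1 was highest in Tet-PTF1a Dox (84.9), clear of Tet-One Dox (54.9), Tet-One Control (54.7) and Tet-PTF1a Control (51.6), whose neighbouring ranges overlapped, and lowest in Tet-MIST1. CDK6 was highest in Tet-PTF1a Dox (34.3), followed without overlap by Tet-PTF1a Control (23.5) and Tet-MIST1 Control (11.5). CDK4 ranged from 179 in Tet-MIST1 Dox to 75.8 in Tet-PTF1a Dox. CDKN1A was at 32.2 and 31.4 in Tet-MIST1 Dox and Control, at 10.8 and 10.4 in Tet-One Dox and Control, and at 7.30 and 6.11 in Tet-PTF1a Dox and Control, and the ranges of the lines did not overlap. CDKN1C was highest in Tet-PTF1a Dox (3.46), and CCND3 in Tet-MIST1 Control (16.9) and Dox (16.1).

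Whether a gene responded differently in 2 lines was tested as the interaction of line and Dox over their 16 libraries. Between Tet-PTF1a and Tet-MIST1, 7 of 10 genes differed, where 36.4% of 13519 genes did. CCND1 (log2 difference 0.84, edgeR adjusted p = 1.13e-10), CDK6 (0.76, 3.09e-07), CDKN1C (0.57, 0.00261), CCNE1 (0.24, 0.0197) and CDKN1A (0.24, 0.00998) responded more positively in Tet-PTF1a. CDK4 (-0.26, 0.00397) and CCNE2 (-0.23, 0.0296) responded more positively in Tet-MIST1. CCNE1 was no longer called without Tet-PTF1a Control replicate 1 or 4 or Dox replicate 3 or 4, CCNE2 without Tet-PTF1a Control replicate 2 or 3 or Tet-MIST1 Control replicate 4, and CDKN1A without Tet-PTF1a Dox replicate 4, while CCND3 was called without Tet-MIST1 Dox replicate 1 (0.19, edgeR adjusted p = 0.0345). Between Tet-PTF1a and Tet-One, 2 of 10 differed, where 12.8% of 13519 genes did, and these were CCND1 (0.71, edgeR adjusted p = 9.29e-04) and CDK6 (0.59, 0.0110). Both were called without each of the 16 libraries in turn. The CDKN1C responses of Tet-PTF1a and Tet-One differed by 0.02 (95% interval -0.47 to 0.48), and those of CDKN1A by 0.19 (-0.04 to 0.42, edgeR adjusted p = 0.297). The CDKN1A difference was called without Tet-One Dox replicate 1 (0.24, edgeR adjusted p = 0.0446), and that of CCND2 without Tet-PTF1a Control replicate 1 (1.05, edgeR adjusted p = 0.00346). Between Tet-MIST1 and Tet-One, 0 of 10 differed by edgeR, where 1.66% of 13877 genes did. CCNE1 (-0.39, adjusted p = 0.128) and CDKN1C (-0.55, 0.342) had an unadjusted p below 0.05, and DESeq2 called CCNE1 (adjusted p = 0.0382). Without Tet-One Dox replicate 1, 4 of 10 were called, where 13.9% of all genes were: CCND1 (-0.22), CDK4 (0.25), CDK6 (-0.27) and CCNE1 (-0.30). The tests that share Tet-One, Tet-MIST1 or Tet-PTF1a use the same libraries and are not independent of each other.

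**Figure D4:**
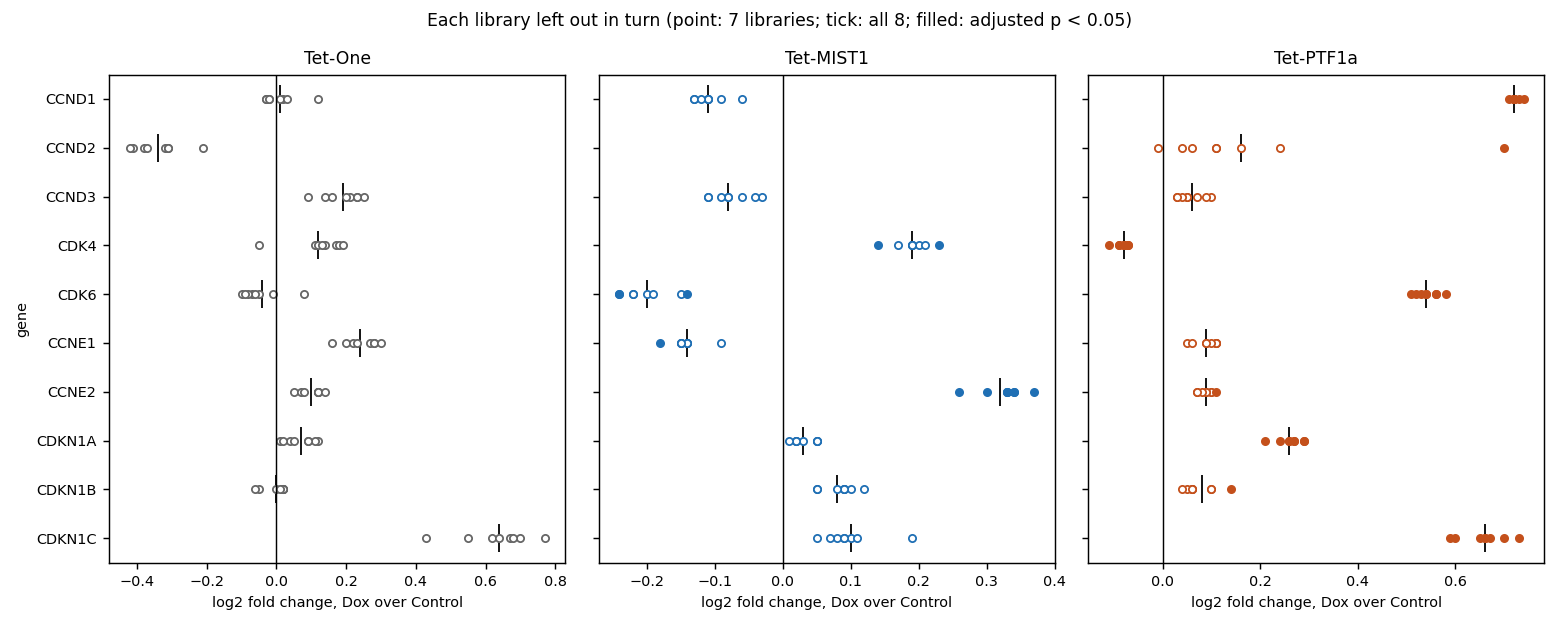
Log2 fold change of Dox over Control (x axis, a separate scale for each line) for each gene (y axis) with each of the 8 libraries of a line left out in turn, as points filled where the adjusted p is below 0.05, and with all 8 as a tick. The Tet-PTF1a CCND2 point at 0.70 is the fit without Control replicate 1, and the other 7 lie between -0.01 and 0.24.

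Without doxycycline the lines already differed in nearly all of the genes, as they did in most others. Tet-MIST1 Control differed from Tet-One Control in 10 of 10 (80.2% of 13823 genes), 7 higher and 3 lower, and Tet-PTF1a Control in 9 of 10 (79.7% of 13442 genes), 5 higher and 4 lower. In Tet-MIST1 CDKN1A was 3.04-fold higher (log2 difference 1.60, edgeR adjusted p = 4.09e-15), CDKN1C 2.75-fold (1.43) and CCND3 2.09-fold (1.06), and CCND2 was lower (-2.04, edgeR adjusted p = 1.10e-08). In Tet-PTF1a CDK6 was 3.21-fold higher (1.68, edgeR adjusted p = 3.65e-15), CCND2 3.05-fold (1.58) and CDKN1C 2.88-fold (1.49), while CDKN1A was lower (-0.77, edgeR adjusted p = 1.71e-08) and so was CDK4 (-0.44). The CCND2 difference ranged from 1.05 to 1.73 with single libraries left out and stayed called. Tet-PTF1a Control replicate 1 held 9.62 CPM of CCND2, beside 3.77 to 4.20 in the rest of its group. CDKN1A, CDK4 and CCND2 thus lay on opposite sides of Tet-One in the other two lines. Several of these values moved with the scaling or with the trend. With length and GC trends of the exons taken out the Tet-PTF1a difference was 0.11 in place of 0.55 for CCNE2 and no longer called (edgeR adjusted p = 0.0638), 1.04 in place of 1.68 for CDK6, -0.45 in place of -0.77 for CDKN1A, -0.22 in place of -0.44 for CDK4, and 0.21 in place of -0.07 for CCND3, then called (edgeR adjusted p = 3.66e-04). Under library-size scaling CCND1 (-0.01) and CDKN1B (-0.11) were no longer called in Tet-PTF1a, nor CDKN1B (-0.09) in Tet-MIST1, which was also not called without Tet-MIST1 Control replicate 1 (edgeR adjusted p = 0.0989). For CDKN1A the 95% interval of the difference between Tet-MIST1 and Tet-One Control, 1.49 to 1.72, lay above the intervals of its change after Dox in all 3 lines.

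**Figure D5:**
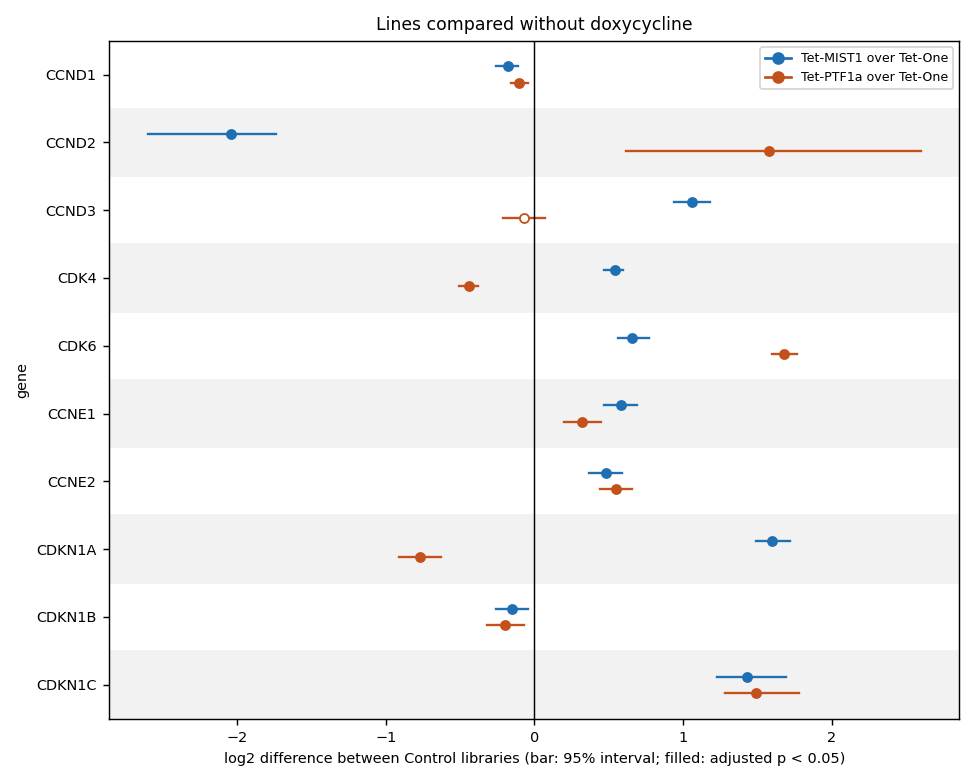
Log2 difference between the Control libraries of Tet-MIST1 or Tet-PTF1a and those of Tet-One (x axis) for each gene (y axis), with 95% intervals from edgeR and filled points where the adjusted p is below 0.05. CDKN1A lies at 1.60 in Tet-MIST1 and -0.77 in Tet-PTF1a, and CCND2 at -2.04 and 1.58.

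For the 3 genes called with a log2 fold change of at least 0.5, the genes with the most similar pattern were found from Pearson correlations over the 24 libraries, on log2 CPM with each line's mean subtracted, among 12973 genes. CCND1 was most like SH3PXD2A (r = 0.983), IFFO2 (0.982) and NAV1 (0.980), and CDK6 was most like PEG10 (0.967), ITPR2 (0.966) and MACF1 (0.965). CDKN1C was most like NRARP (0.879), DLL3 (0.875) and ZNF775 (0.870). The log2 fold changes of NAV1, an actin and microtubule regulator, were 2.13 in Tet-PTF1a, -0.17 in Tet-MIST1 and -0.06 in Tet-One. Those of NRARP, a target and regulator of Notch signalling, were 0.79, -0.00 and 0.28. In Tet-One DLL3 had 0.39 and ZNF775 0.35, and no gene was called there. The libraries share their lines and depth, and these values are a description.

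Other genes of the G1/S machinery rose and fell in both the Tet-PTF1a and the Tet-MIST1 line. Of 32 listed, 30 were in the tables and tested. In Tet-PTF1a 12 rose and 8 fell, 66.7% of those tested where 48.2% of all genes were called, and in Tet-MIST1 7 rose and 2 fell, 9 of the 30, where 20.6% of all genes were called, with medians of 0.00 and 0.01 on the log2 scale beside 0.00 and -0.00 for all genes. The Tet-PTF1a count was 7 of 30 in place of 20 with all 24 libraries in a single fit, where 23.2% of all genes were called. The Tet-MIST1 count was 4 in place of 9 without Control replicate 1 or 3, where 10.7% and 10.6% of all genes were called. In Tet-One 0 were called by edgeR or by DESeq2, and 0 had an unadjusted p below 0.05. CDK2, the kinase of the E cyclins, was not called (0.02 in Tet-PTF1a and -0.05 in Tet-MIST1). RB1, the pocket protein that the kinases phosphorylate, was 138 ± 1.99 CPM in Tet-PTF1a Control and 121 ± 1.90 in Dox (-0.18, edgeR adjusted p = 5.91e-08), and in Tet-MIST1 it was not called (-0.12). E2F1, the activator that pocket proteins restrain, fell by 0.22 in Tet-PTF1a (edgeR adjusted p = 1.53e-07) and rose by 0.17 in Tet-MIST1 (edgeR adjusted p = 0.0374). Of the 10 E2F and DP factors, 7 rose and 1 fell in Tet-PTF1a, and 3 rose and 2 fell in Tet-MIST1.

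Of the INK4 inhibitors, which bind CDK4 and CDK6, CDKN2A and CDKN2B were not listed in any table. CDKN2D rose by 0.59 on the log2 scale in Tet-MIST1 (edgeR adjusted p = 5.19e-05) and fell by 0.37 in Tet-PTF1a (edgeR adjusted p = 1.83e-04). CDKN2C rose by 0.36 in Tet-MIST1 (edgeR adjusted p = 0.00242) and was not called in Tet-PTF1a (-0.08, edgeR adjusted p = 0.0776). MYC fell by 0.12 in Tet-PTF1a (edgeR adjusted p = 2.95e-04) and was not called in Tet-MIST1 (-0.05). MDM2, a ubiquitin ligase, fell by 0.10 in Tet-PTF1a (edgeR adjusted p = 0.00175) and was not called in Tet-MIST1 (-0.03).

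Of 20 proliferation genes, 3 rose and 10 fell in Tet-PTF1a, 65.0% where 48.2% of all genes were called, with a median of -0.07, and the falls among those called were of at most 0.21, for RRM2. MKI67, the source of the Ki-67 proliferation marker, was 884 ± 29.6 CPM in Control and 887 ± 36.4 in Dox there (0.01, edgeR adjusted p = 0.902). In Tet-MIST1 2 of 20 were called, where 20.6% of all genes were. These were RRM2 (0.16) and BIRC5 (0.21), which rose and were named after their values were seen, and MKI67 was not called (-0.23, edgeR adjusted p = 0.305). That count moved between 0 and 7 when single libraries were left out, with 7 without Dox replicate 2, where 27.7% of all genes were called. The count was 0 without Control replicate 1 or 3 or Dox replicate 4, where 10.7%, 10.6% and 14.8% of all genes were called. With all 24 libraries in a single fit the Tet-PTF1a count was 1 of 20 in place of 13, where 23.2% of all genes were called. In Tet-One 0 of 20 were called by edgeR or by DESeq2, and 1 had an unadjusted p below 0.05. All 10 of the listed cell type markers were called in Tet-PTF1a, 3 up and 7 down, KRT8 (-1.30), KRT18 (-1.10), KRT19 (-1.07) and COL1A1 (-1.25) among those that fell, and KRT7 (1.64), CDH1 (0.82) and SOX9 (0.30) among those that rose, and their part in the cell cycle gene values was not tested.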

How the data were processed

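Polyadenylated RNA of 3 Panc-1 lines, with and without doxycycline, was sequenced as paired-end reads. The authors aligned the reads to hg19 with TopHat and tested genes with edgeR after a filter on low CPM. The submitters' processing notes also name HTSeq and DESeq, without versions or roles, and the use of strand in counting is not given in the sources used here. Each line had its own deposited table of raw read counts per gene, exon coordinates and exon length. Each table also gave a normalized signal (CPM) that the authors computed within that table, so that levels across lines carry that scaling. Fold changes, p-values and FDR of the authors' own comparisons were in the tables and were not used.

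Counts were tested in R 4.3.3 with the quasi-likelihood test of edgeR 4.0.16 (limma 3.58.1; TMM scaling, robust fit, prior count 2, over 0.5 CPM in at least 4 libraries), with Benjamini-Hochberg adjustment over all genes and a threshold of 0.05. Each line's Dox libraries were compared with its own Control libraries, 16 libraries of a pair of lines gave the interaction, and Control libraries of Tet-MIST1 or Tet-PTF1a were compared with those of Tet-One. Intervals are those of the fit without prior count. CPM per library in the text is the deposited value, and RPKM was computed from counts scaled over all 24 libraries. DESeq2 1.42.0 was an alternative, beside other scalings, filters, prior count, a replicate block, removal of exon length and GC trends, a fit of all 24 libraries and leaving out each library. The scripts were tested on simulated data. The 2 rows per table with a repeated gene name were left out, and 18 date-like names per table remain. Libraries held 17210609 to 43017608 counts.

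Groups were taken from the labels. A gene and a gene list that had been planned are not reported here. The 10 genes and the lists were chosen with earlier results of these data known. Named in the text were the 10 genes in every group, listed genes called and changed by 0.5 or more on the log2 scale, and CDK2, RB1, E2F1, MDM2, MYC, the INK4 genes and MKI67 whatever their values. For members called with a change of that size, the 3 most similar genes with a mean of at least 1 CPM were named, on log2 CPM with a pseudocount of 0.5. TSPAN31, INTS8, KRT8, VIM, SOX9, RRM2 and BIRC5 were named outside this rule, after their values were seen.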

Additional observations from a re-analysis of the deposited data

Results flagged for a closer look

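In 8 of the 60 groups of 4 libraries, the highest or lowest library was farther from the others than Dixon's 95% limit allows, where chance gives about 5% or 3 groups. Tet-One Dox replicate 1 accounted for 4 of these. It held 176 CPM of CCND1 where the other 3 held 248 to 252, 312 CPM of CDK4 beside 201 to 210, 59.7 CPM of CDK6 beside 86.2 to 90.3, and 50.5 CPM of CDKN1B beside 43.6 to 44.5. Tet-PTF1a Control replicate 1 held 9.62 CPM of CCND2 beside 3.77 to 4.20 and 46.5 CPM of CDKN1B beside 40.5 to 40.9. Tet-MIST1 Control replicate 1 held 38.5 CPM of CDKN1B beside 42.2 to 42.9, and Tet-One Control replicate 1 held 19.5 CPM of CCNE2 beside 22.6 to 22.7.

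The response to Dox differed between lines by the interaction test in 9 cases. Tet-PTF1a and Tet-One differed in CCND1 (0.71 on the log2 scale) and CDK6 (0.59). Tet-PTF1a and Tet-MIST1 differed in CCND1 (0.84), CDK6 (0.76), CDKN1C (0.57), CCNE1 (0.24), CDKN1A (0.24), CDK4 (-0.26) and CCNE2 (-0.23).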

How the results depend on the processing

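Of 1476 refits of the fold changes of the 10 genes, 1401 kept their direction and their side of the threshold, 31 reversed, 24 were no longer called and 20 became called. Of 60 CPM means, 55 moved by less than 1 SD under joint scaling. The called count of the 10 genes in Tet-MIST1 was 1 in place of 2 with all 24 libraries in a single fit, which likewise gave 1 proliferation gene there, and 7 other G1/S genes and 1 proliferation gene in Tet-PTF1a, while all genes called fell to 1705 of Tet-MIST1 and 3131 of Tet-PTF1a. The interaction of Tet-MIST1 with Tet-One gave 1 call by DESeq2 (499 of all genes) and 1 with the exon length and GC trend removed (832 of all genes). That removal gave 2672 for Tet-PTF1a against Tet-One.

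Values that reversed were small and not called, except CCND3 without Dox in Tet-PTF1a, which was called without the trend (0.21) and stood at 0.02 with library-size scaling. That scaling gave CCND1 in Tet-One (-0.01) and CCNE2 in Tet-PTF1a against Tet-One (0.04), and trend removal gave CDK6 in Tet-One (0.08) and CCND2 in Tet-PTF1a against Tet-MIST1 (-0.04). The cause was not tested. Library-size scaling also made CCNE1 and CCNE2 (0.13 each) and CDKN1B (0.11) called in Tet-PTF1a.

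With single libraries left out, the called count in Tet-MIST1 ranged from 1 to 4 for the 10 genes, 4 to 12 for other G1/S genes and 0 to 7 for proliferation genes, and the interaction with Tet-One from 0 to 4. The G1/S count was 4 without Tet-MIST1 Control replicate 1 or 3 and 5 without Control replicate 4, and the proliferation count was 0 without Control replicate 1 or 3 or Dox replicate 4 and 1 without Control replicate 2 or 4 or Dox replicate 3. All genes called ranged from 1436 to 3770 in Tet-MIST1, 144 to 1931 in its interaction with Tet-One and 1393 to 4154 in that of Tet-PTF1a with Tet-One, where 1931 and 4154 were the counts without Tet-One Dox replicate 1. In Tet-MIST1 the lowest was without Control replicate 3 and the highest without Dox replicate 2. In Tet-One the fold change of CCND1 ranged from -0.03 to 0.12, CDK4 from -0.05 to 0.19 and CDK6 from -0.10 to 0.08, and in Tet-PTF1a CCND2 from -0.01 to 0.70. In the interaction of Tet-MIST1 with Tet-One CDK4 ranged from -0.01 to 0.25 and CDKN1A from -0.10 to 0.02, of Tet-PTF1a with Tet-One CCNE2 from -0.06 to 0.03 and CDKN1C from -0.11 to 0.23, and of Tet-PTF1a with Tet-MIST1 CCND2 from -0.07 to 0.61 and CDKN1B from -0.04 to 0.07.

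The replicate numbers were not used as pairs in the main fits. Deviations of same-numbered Control and Dox libraries from their group means correlated at -0.24 to 0.18. With 4 libraries per group, some of them standing apart, these values cannot settle whether the samples were paired. With the replicate number as a block, Tet-MIST1 had 1 of the 10 genes called, 4 other G1/S genes and 0 proliferation genes, with 1462 of all genes, and its interaction with Tet-One had 83 of all genes. CDK4 in Tet-MIST1 (0.18, edgeR adjusted p = 0.0950) and CCNE2 in Tet-PTF1a against Tet-MIST1 (-0.22, edgeR adjusted p = 0.0510) were not called with the block. CCND2 was low in Tet-MIST1, at 9 to 20 counts per library. Its 0.247 to 0.497 CPM lay below the filter of 0.5 CPM in every library of that line. The shallowest libraries were those of Tet-PTF1a, where CCND2 had 68 to 408 counts.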
